A study of Mus musculus with 4 samples.

Results

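Nucleolar ribosome biogenesis factors were followed in the mouse hippocampus, in a knockout of Pelp1 (PELP1 FBKO, known from the study as a forebrain knockout) and in FLOXED mice, the comparison genotype. PELP1 is a protein that binds estrogen receptors and modulates their activity. The members were the genes whose symbol in the count files belongs to the Nop, Utp, Rrp, Nol (without Nol3, Nol4 and Nol9) or Polr1 families or to a set of nucleolar WD-repeat proteins, together with 15 further symbols such as Ncl, Fbl, Dkc1, Bop1 and Ubtf. The rule read symbols only and gave 55 of the 22609 genes in the files. All mice were C57BL/6, had been ovariectomized, carried estradiol (E2) mini pumps and underwent GCI (global cerebral ischemia, in which the blood supply of the whole brain is interrupted for a short time) with 24 h of reperfusion. Each genotype had 2 libraries, which are called FLOXED 1, FLOXED 2, PELP1 FBKO 1 and PELP1 FBKO 2. Nothing in the labels tells whether 2 libraries of 1 genotype represent separate animals, pools or repeats, so each p-value reflects the spread among these 4 samples alone, possibly a technical one. The sources used here give neither the Cre driver, nor the deleted part of Pelp1, nor the age of the mice. No group was free of ischemia or estradiol, and whether a difference between genotypes existed already without them cannot be told apart here.

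Ribosomes are built in the nucleolus. RNA polymerase I copies the ribosomal DNA into a long precursor, small nucleolar ribonucleoproteins (snoRNPs) guide its methylation and pseudouridylation, the small subunit processome folds and cuts the part that becomes the small ribosomal subunit, and another set of factors assembles the large subunit. The PELP1 protein itself works in this line, in the rixosome, a complex that trims the precursor of the large subunit. Neurons have prominent nucleoli, and nucleolar output is known to respond to growth signals and to stress.

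The libraries held between 17524594 and 22447658 reads assigned to genes, and between 61536 and 69305 of these fell on the members, 0.281% to 0.356% of gene reads. All 55 members passed the filter on low counts, and each had at least 63 reads in every library. Values below are in CPM, the usual unit of a gene's reads relative to all gene reads of its library, with library sizes scaled by the trimmed mean of M-values (TMM). FLOXED 1 stood apart from the other libraries in its share of non-unique alignments, 47.7% against 38.5% to 41.5%. Short transcripts were also higher in FLOXED 1 than in FLOXED 2, which by itself does not tell which of the FLOXED libraries was unusual. Over 14819 tested genes with a known length, the difference FLOXED 2 minus FLOXED 1 had a Spearman correlation of 0.57 with transcript length. This correlation is across genes, which share their libraries and are not independent replicates. Markers of hippocampal neurons were detected: the pyramidal cell gene Neurod6 lay between 161 and 247 CPM, the CA1 gene Fibcd1 between 129 and 232 CPM, and the granule cell gene Prox1 between 25.3 and 59.3 CPM. Zbtb20, from the same marker list, lay between 4.73 and 7.16 CPM. Without another tissue to compare, these levels do not test the tissue label.

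Pelp1, the targeted gene, measured 26.7 and 26.3 CPM in the FLOXED libraries, and 17.95 and 17.3 CPM in those of PELP1 FBKO. The genotypes did not overlap, with a log2 fold change of -0.59 (SE 0.149; edgeR quasi-likelihood, adjusted p = 0.130). Positive log2 fold changes here and below mean a higher level in PELP1 FBKO.

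Most nucleolar members had a slightly lower level in PELP1 FBKO, by a small amount per gene, and no member passed the test. Of the 55 members 47 had a negative log2 fold change and 8 a positive one, while 50% of all 14978 tested genes were negative. The median over the members was -0.20, with the middle of the list between -0.29 and -0.09, and the median over all tested genes was 0.000155. By edgeR's quasi-likelihood test 0 of 55 members passed an adjusted p of 0.05, as did 0% of all tested genes, and the smallest adjusted p of a member was 0.157. At an adjusted p of 0.10 there were again 0 members, against 1.56% of all genes higher and 0.394% lower. With an unadjusted p under 0.05, 6 members were lower in PELP1 FBKO and 1 was higher, against 5.55% and 10.1% of all tested genes. DESeq2 and limma-voom each placed 6 members lower (unadjusted p under 0.05) and 0 higher, against 4.23% and 5.51% of all genes lower and 6.01% and 10.1% higher. In 26 members both PELP1 FBKO libraries lay below both FLOXED libraries, and in 2 they lay above, against 23% and 25.4% of all tested genes, or 48.4% in either direction. A difference over 0.5 on the log2 scale was seen in 3 members, Rrp9, Nhp2 and Utp14b (5.45%). The share was 16.9% over all tested genes and 10.3% over the tested genes within the members' range of mean CPM. In these bulk samples, fewer cells of a type and less RNA per cell cannot be told apart.

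**Figure D1:**
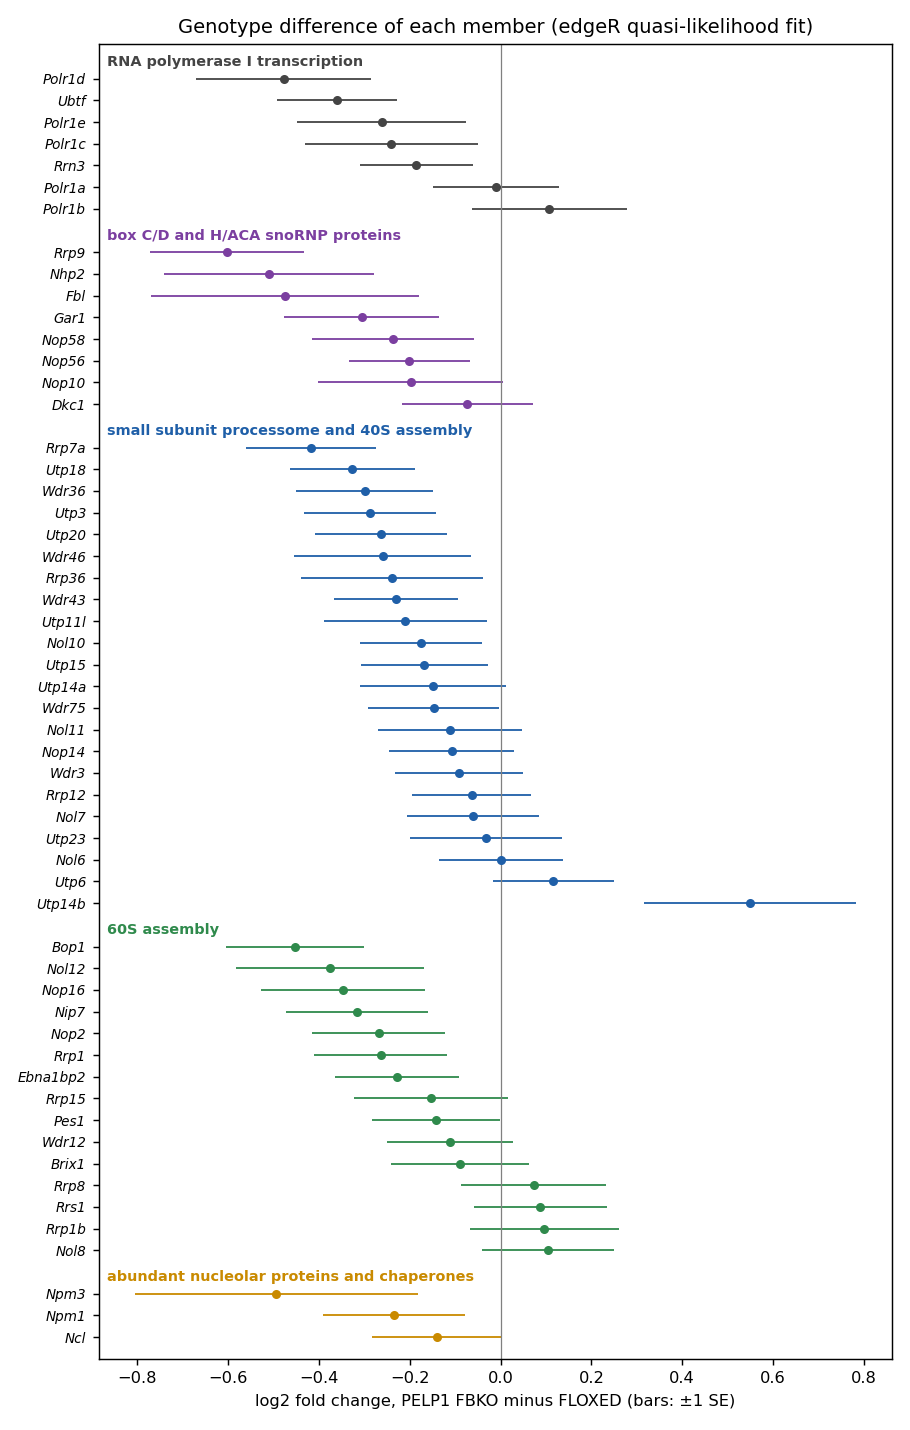
Log2 fold change of each of the 55 members (PELP1 FBKO minus FLOXED, points) with 1 standard error on each side (bars), grouped by role on the vertical axis. The points of 47 members lie left of 0, and they range from -0.60 for Rrp9 to 0.55 for Utp14b.

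**Figure D2:**
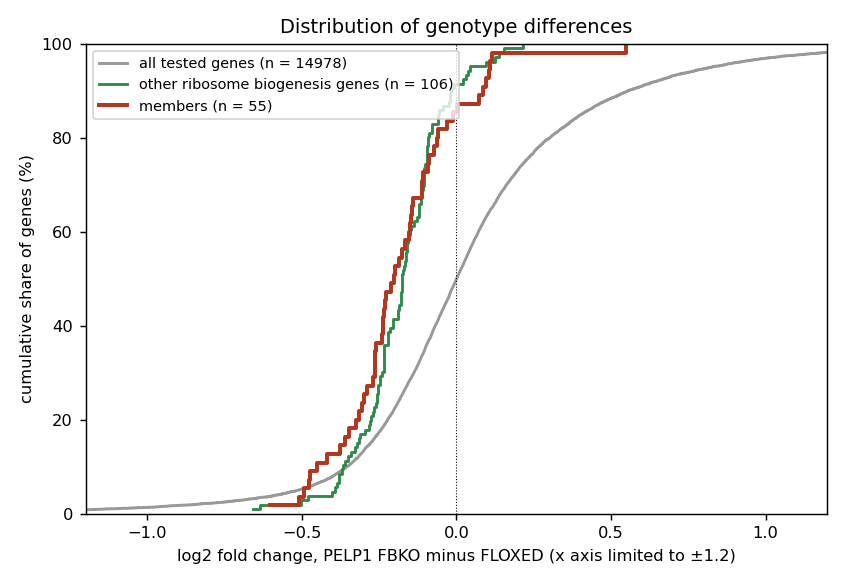
Cumulative share of genes (vertical axis, percent) by log2 fold change (horizontal axis, PELP1 FBKO minus FLOXED) for the 55 members, 106 other ribosome biogenesis genes and all 14978 tested genes. The curves of both ribosome biogenesis sets lie left of the curve of all genes except at its far left end, with medians of -0.20, -0.18 and 0.000155.

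Single libraries carried much of this pattern. The summed level of the members was 3562 CPM in FLOXED 1, 3197 CPM in FLOXED 2, 2862 CPM in PELP1 FBKO 1 and 3014 CPM in PELP1 FBKO 2. FLOXED 1 was the highest library for 39 of 55 members (70.9%), against 32.6% of all tested genes, and PELP1 FBKO 1 was the lowest for 37 members (67.3%), against 26.1%. Within FLOXED the median difference of library 2 minus library 1 over the members was -0.16 on the log2 scale, and within PELP1 FBKO it was 0.11. FLOXED 2 and PELP1 FBKO 2 lay in the middle, with median deviations from the gene means of -0.01 and -0.03. The median log2 fold change over the members was -0.10 without FLOXED 1, with 44 of 55 negative, -0.31 without FLOXED 2, with 46 negative, -0.14 without PELP1 FBKO 1 and -0.24 without PELP1 FBKO 2. Over all genes tested in those fits the negative share was 49.8%, 49.1%, 52.7% and 50.5%, in that order. Members lower at an unadjusted p under 0.05 numbered 2, 19, 2 and 5, against 3.6%, 12.2%, 3.26% and 5.78% of all genes. Without FLOXED 2, so that FLOXED 1 stood alone for its genotype, edgeR called 4 members lower, Bop1, Nhp2, Polr1d and Rrp9, where 1.41% of all genes were called lower and 2.07% higher. With any other library left out, 0 members were called, while the calls over all genes were 0% without FLOXED 1, 2.99% higher and 0.68% lower without PELP1 FBKO 1, and 1.79% higher and 2.12% lower without PELP1 FBKO 2.

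Other fits called 0 members in either direction, although most of them called other genes. Of all tested genes DESeq2 called 2.2% higher and 0.895% lower, the exact test of edgeR 3.75% and 1.32%, the robust quasi-likelihood fit 0.474% and 0.1%, and limma-voom 0% in both directions. With median-of-ratios size factors the shares were 0.0868% and 0.0267%, without a count filter 1.51% and 0.439%, and with 50 or more reads required in each library 0.318% and 0.0326%. A block for the replicate number gave 2.58% and 1.2%, and a block with the numbers crossed 1.49% and 0.608%.

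**Figure D3:**
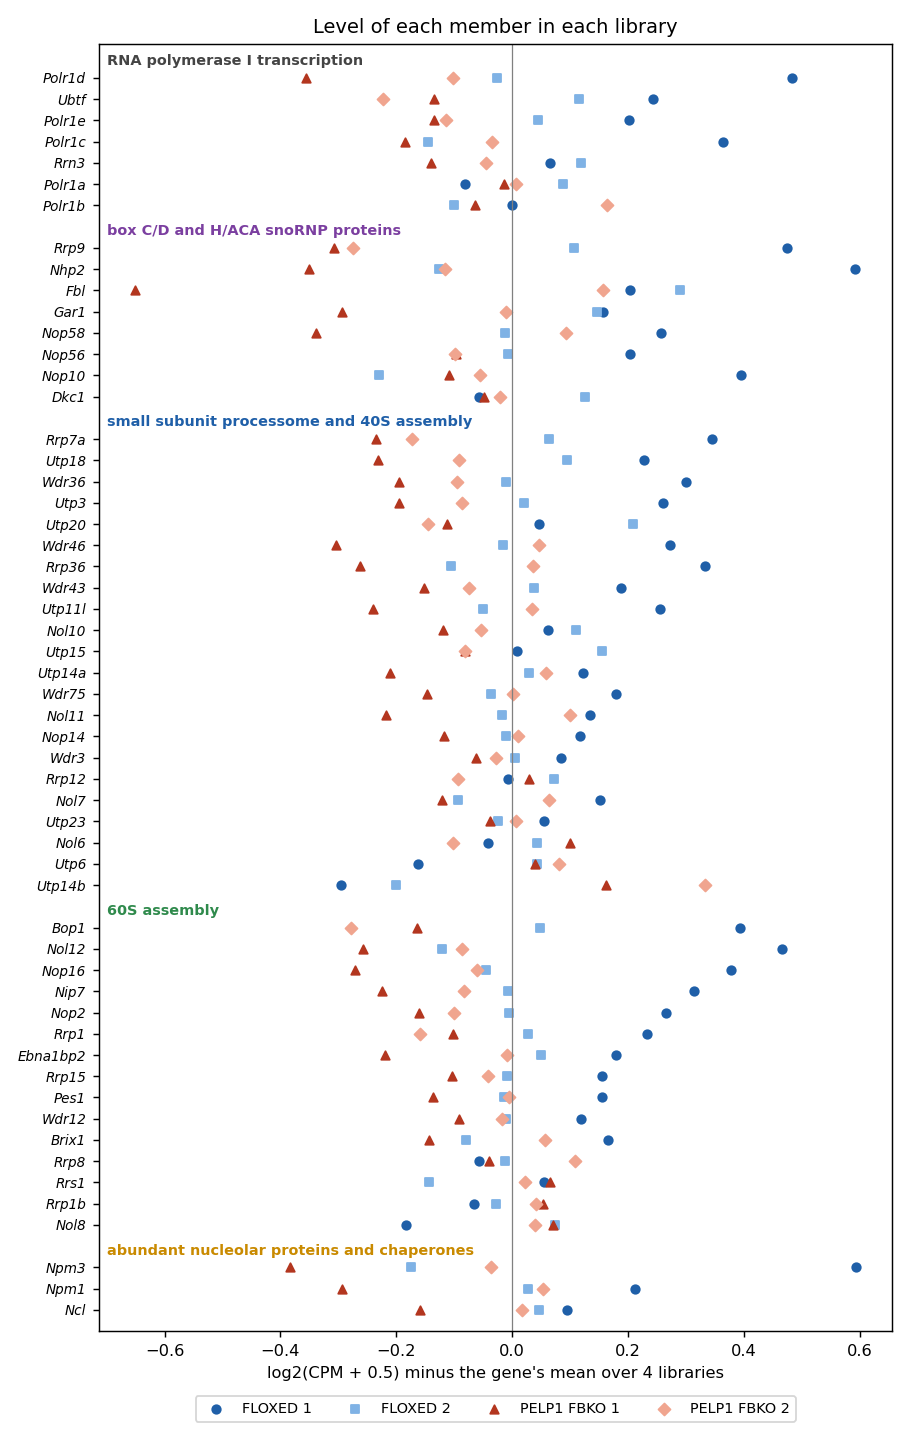
Level of each member in each library, as log2(CPM + 0.5) minus the gene's mean over the 4 libraries (horizontal axis), grouped by role on the vertical axis. FLOXED 1 is the rightmost point for 39 of 55 members and PELP1 FBKO 1 the leftmost for 37.

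Transcript length moved with the differences. The 17 members with a transcript shorter than 2000 bases had a median log2 fold change of -0.26 and all were negative, while the 38 longer ones had a median of -0.15 with 30 negative. All tested genes showed the same order, with medians of -0.14 for 3572 short genes and 0.033 for 11247 long ones. Within FLOXED, the short members were lower in library 2 than in library 1 by a median of -0.31 and the long members by -0.13. Within PELP1 FBKO the sign was opposite, with library 2 minus library 1 at a median of 0.21 for short and 0.076 for long members. The Spearman correlation of this PELP1 FBKO difference with length was -0.37 over the members and -0.27 over all tested genes of known length. When transcript length and GC content were entered as offsets for each library, the members' median was -0.22 and that of all genes -0.05. With these offsets 50 of 55 members were negative against 58.2% of all genes, 17 members were lower at an unadjusted p under 0.05 against 11.4% of all genes, and 0 passed the adjusted threshold, against 1.94% of all genes called higher and 1.05% lower.

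**Figure D4:**
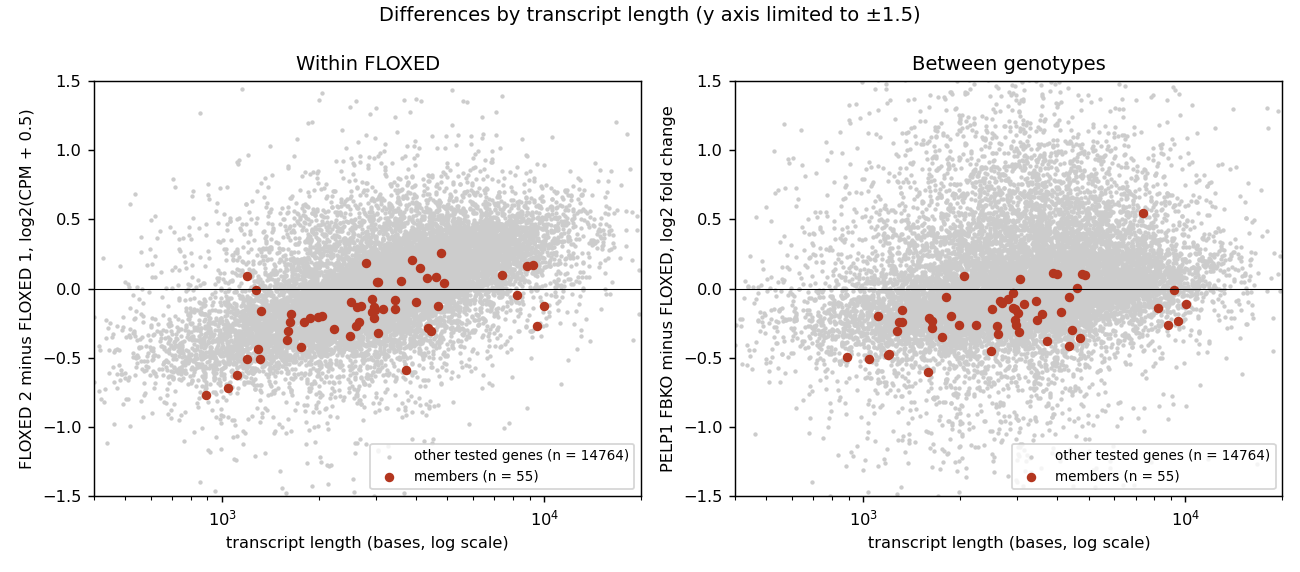
Transcript length (horizontal axis, bases, log scale) against the difference FLOXED 2 minus FLOXED 1 (left panel, log2(CPM + 0.5)) and the genotype log2 fold change (right panel), for 14819 tested genes of known length (grey), with the 55 members in red. Short transcripts lie lower in both panels, and the Spearman correlation with length over the members was 0.57 on the left and 0.46 on the right. Over all 14819 genes it was 0.57 on the left and 0.27 on the right.

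Among the 7 genes of RNA polymerase I transcription 6 had a negative log2 fold change, with a median of -0.24. Ubtf, the upstream binding factor that keeps ribosomal genes open and recruits the polymerase, measured 219 and 199.9 CPM in the FLOXED libraries, and 168 and 158 CPM in those of PELP1 FBKO. Both FLOXED libraries lay above both PELP1 FBKO libraries, and the log2 fold change was -0.36 (SE 0.131, unadjusted p = 0.0254, edgeR quasi-likelihood adjusted p = 0.249). Polr1d, a small subunit shared with RNA polymerase III, was at 61.0, 42.7, 33.9 and 40.5 CPM in the order FLOXED 1, FLOXED 2, PELP1 FBKO 1 and PELP1 FBKO 2, an order kept below. Its genotypes did not overlap, but FLOXED 1 stood well above the other libraries, and the log2 fold change of -0.48 (SE 0.193) was -0.20 without FLOXED 1. Polr1c, the partner of Polr1d in the assembly of the polymerase, showed the same single high library, with 43.3 CPM in FLOXED 1 and between 29.5 and 32.8 CPM elsewhere.

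Rrn3, the factor that makes the polymerase competent to start, was at 89.7, 93.1, 77.7 and 83.0 CPM, a log2 fold change of -0.19 (SE 0.124) without overlap. Polr1e, a polymerase I-specific subunit, was at 10.6, 9.41, 8.25 and 8.38 CPM. The catalytic subunits differed little between genotypes. Polr1a, the largest subunit, was at 36.2, 40.7, 37.9 and 38.4 CPM, with a log2 fold change of -0.01 (SE 0.138), and Polr1b, the second-largest, at 15.5, 14.4, 14.8 and 17.4 CPM, with 0.11 (SE 0.171). In both, the FLOXED and PELP1 FBKO libraries overlapped.

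All 8 snoRNP proteins had a negative log2 fold change, with a median of -0.27. Rrp9, the protein specific to the U3 snoRNP that guides early cleavage of the precursor, measured 39.3 and 30.3 CPM in the FLOXED libraries, and 22.6 and 23.2 CPM in those of PELP1 FBKO. It had the smallest p of all members, with a log2 fold change of -0.60 (SE 0.169, unadjusted p = 0.00745, edgeR quasi-likelihood adjusted p = 0.157). Every FLOXED value exceeded every PELP1 FBKO value, the PELP1 FBKO pair was nearly level, and the log2 fold change was -0.41 without FLOXED 1 and -0.79 without FLOXED 2.

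Fibrillarin (Fbl), the methyltransferase of box C/D snoRNPs, was at 7.70, 8.21, 4.04 and 7.44 CPM. PELP1 FBKO 1 alone was low, while PELP1 FBKO 2 lay close to FLOXED, and the log2 fold change of -0.47 (SE 0.295) became -0.12 without PELP1 FBKO 1. Counts of Fbl are uncertain, because 73.0% of the 50-base windows of its transcript also occur, letter for letter, in transcripts of other genes, and such reads were not counted. Nop56, a scaffold protein of the same particles, was at 68.8, 59.3, 55.7 and 55.7 CPM, with 37.6% of its windows shared. Its partner Nop58 was at 65.3, 54.1, 43.03 and 58.2 CPM, with overlapping genotypes.

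The H/ACA particles, which guide pseudouridylation, gave a mixed picture. Nhp2 was at 63.5 CPM in FLOXED 1 and between 32.8 and 38.6 CPM in the other libraries, so that FLOXED 2 lay within the PELP1 FBKO values. Its log2 fold change was -0.51 (SE 0.231) with all libraries and -0.11 without FLOXED 1. Nop10, the smallest protein of the particle, was at 57.5, 37.1, 40.4 and 41.9 CPM, and its log2 fold change of -0.20 turned to 0.15 without FLOXED 1. Gar1 was at 20.0, 19.9, 14.5 and 17.8 CPM, level within FLOXED and without overlap (log2 fold change -0.31, SE 0.170). Dkc1, dyskerin, the pseudouridine synthase itself, was at 31.4, 35.7, 31.6 and 32.2 CPM, with a log2 fold change of -0.07 (SE 0.144).

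Of 22 small subunit factors 19 had a negative log2 fold change, with a median of -0.16, and 9 were lower in PELP1 FBKO without overlap, against 23% of all tested genes. Rrp7a, a processome factor, was at 70.4, 57.9, 47.0 and 49.0 CPM, with a log2 fold change of -0.42 (SE 0.144, unadjusted p = 0.0198, edgeR quasi-likelihood adjusted p = 0.227). Its span overlaps that of Serhl, and 21.6% of its windows are shared with other genes. Utp18, a WD-repeat protein of the U3 processome, was at 49.6, 45.1, 35.9 and 39.6 CPM, a log2 fold change of -0.33 (SE 0.138, unadjusted p = 0.0456). In both genes each FLOXED library lay above each PELP1 FBKO library.

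Wdr36, a processome protein, was at 60.8, 48.9, 42.98 and 46.1 CPM and Utp3 at 51.8, 43.7, 37.6 and 40.6 CPM, both without overlap and highest in FLOXED 1. Utp20, the long scaffold of the processome, was at 30.2, 33.9, 27.0 and 26.4 CPM and therefore highest in FLOXED 2. Log2 fold changes between -0.30 and 0.12 were found for the small subunit factors other than Rrp7a, Utp18 and Utp14b. Nol6, with the highest CPM of them, was at 159.9, 169.5, 176 and 153 CPM, with overlapping genotypes.

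Among the 3 small subunit factors with a positive log2 fold change (Utp14b, Utp6 and Nol6), Utp14b alone did not overlap between genotypes, with 3.59 and 3.88 CPM in the FLOXED libraries, and 5.12 and 5.83 CPM in those of PELP1 FBKO. Its log2 fold change was 0.55 (SE 0.234, unadjusted p = 0.0470, edgeR quasi-likelihood adjusted p = 0.313), from 63, 84, 113 and 119 reads. Utp14b is an intronless copy of Utp14a that is known for its role in the male germ line, and its span overlaps Acsl3, a fatty acid ligase gene, in the RefSeq table. Of the 50-base windows of Utp14b 2.49% occur in transcripts of other genes, Acsl3 among them. Some reads counted for Utp14b may therefore belong to Acsl3, and whether counting used the strand is not given. Utp14a, the parent gene, was at 26.9, 25.2, 21.3 and 25.7 CPM, with 15.5% of its windows shared.

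Among 15 large subunit factors 11 had a negative log2 fold change, with a median of -0.15. Bop1, Pes1 and Wdr12 form the PeBoW complex, which processes the precursor of the large subunit RNAs. Bop1 was at 104, 82.1, 70.8 and 65.3 CPM, a log2 fold change of -0.45 (SE 0.152, unadjusted p = 0.0176, edgeR quasi-likelihood adjusted p = 0.215). Its genotypes did not overlap, and its span overlaps the genes listed in the files as Heatr7a and Scx. The partners differed less: Pes1 was at 44.1, 39.2, 35.998 and 39.5 CPM (log2 fold change -0.14, SE 0.141) and Wdr12 at 39.4, 35.9, 33.9 and 35.8 CPM (-0.11, SE 0.138). The level of Pes1 is less certain, with 22.6% of its windows shared with other genes, against 7.28% for Wdr12 and 0.041% for Bop1. Whether Bop1 differed from its partners was not tested.

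Nip7, which is needed for the maturation of the precursor, was at 53.3, 42.6, 36.5 and 40.4 CPM. Nop2, a methyltransferase of the large subunit RNA, was at 53.9, 44.6, 39.99 and 41.7 CPM, with a log2 fold change of -0.27 (SE 0.146). Nop16 was at 43.7, 32.5, 27.7 and 32.1 CPM and Nol12 at 43.7, 29.0, 26.3 and 29.7 CPM. In these 4 genes FLOXED 1 was the highest library, FLOXED 2 lay near PELP1 FBKO 2, and Nol12 overlapped between genotypes. Rrp1b, Rrp8, Rrs1 and Nol8 had log2 fold changes between 0.07 and 0.10, none with an unadjusted p under 0.05.

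The 3 abundant nucleolar proteins had log2 fold changes of -0.49 for Npm3, -0.23 for Npm1 and -0.14 for Ncl. Nucleolin (Ncl), which binds ribosomal DNA and the nascent precursor, was at 464, 449, 389 and 439.5 CPM. Both PELP1 FBKO libraries lay below FLOXED, and PELP1 FBKO 2 was nearer to FLOXED 2 than to PELP1 FBKO 1. Nucleophosmin (Npm1), a chaperone that shapes the outer nucleolus, was at 92.5, 81.3, 64.9 and 82.8 CPM, and PELP1 FBKO 2 lay within the FLOXED range. Its related chaperone Npm3 was at 8.61, 4.84, 4.13 and 5.39 CPM, high in FLOXED 1 alone. Of the transcript windows of Npm1 and Npm3, 40.9% and 36.1% are shared with other genes, pseudogenes among them, so both levels are uncertain. Over 10% of windows were shared in 9 members, and 19 members had none.

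Promoter sequences were examined because the members lay on 1 side together and Myc, which binds the E-box CACGTG and is known to drive ribosome biogenesis genes, is itself a pathway gene. RefSeq's table of GRCm38.p6 gave promoters for 45 of 55 members. In the 250 bases before the start, an E-box (CACGTG, the same on both strands) occurred in 7 of 45 members (15.6%), in 9.64% of tested genes and in 6.86% of all genes with an entry. These were Nol11, Nop2, Rrn3, Rrp7a, Utp14b, Utp18 and Wdr46. A core of ETS factor sites (CCGGAAG or its reverse complement CTTCCGG) occurred in 12 of 45 members (26.7%), against 13.9% of tested genes, a GC box (GGGCGG or CCGCCC) in 68.9% against 62.2%, a CCAAT box (CCAAT or ATTGG) in 35.6% against 39.9%, TATAAA or TTTATA in 11.1% against 8.20%, and the cyclic AMP element TGACGTCA in 0 of 45 members against 2.92%. The motifs can overlap each other. The median log2 fold change was -0.26 for members with an E-box and -0.20 for those without. The E-box did not stand out in this, with -0.26 and -0.17 for the ETS core and -0.25 and -0.19 for the CCAAT box. For the GC box (-0.20 and -0.23) and the TATA motif (-0.14 and -0.21) the order was the other way. These splits were not tested. The promoters of 5 named members with an E-box follow, to show the letters behind this count, from 250 bases before the start to the base before it, 5′ to 3′ on the gene's strand and with the E-box in capitals. Rrp7a lies at chr15:83122802-83123051 (minus strand), Utp18 at chr11:93885767-93886016 (minus), Nop2 at chr6:125131633-125131882 (plus), Rrn3 at chr16:13780449-13780698 (plus) and Utp14b at chr1:78658190-78658439 (plus).
Rrp7a: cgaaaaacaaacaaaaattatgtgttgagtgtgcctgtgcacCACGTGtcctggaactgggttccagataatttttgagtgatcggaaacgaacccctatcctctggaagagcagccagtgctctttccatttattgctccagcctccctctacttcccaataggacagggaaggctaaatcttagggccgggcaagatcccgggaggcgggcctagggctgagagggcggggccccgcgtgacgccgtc
Utp18: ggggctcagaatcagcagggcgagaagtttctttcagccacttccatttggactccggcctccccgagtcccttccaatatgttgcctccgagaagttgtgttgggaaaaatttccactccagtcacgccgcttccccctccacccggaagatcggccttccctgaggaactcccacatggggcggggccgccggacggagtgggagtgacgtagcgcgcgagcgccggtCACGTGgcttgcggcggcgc
Nop2: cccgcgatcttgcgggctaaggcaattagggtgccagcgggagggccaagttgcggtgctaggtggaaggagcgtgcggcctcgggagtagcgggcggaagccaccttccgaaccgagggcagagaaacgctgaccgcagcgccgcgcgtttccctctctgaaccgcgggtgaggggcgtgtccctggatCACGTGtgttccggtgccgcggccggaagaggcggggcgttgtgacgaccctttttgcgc
Rrn3: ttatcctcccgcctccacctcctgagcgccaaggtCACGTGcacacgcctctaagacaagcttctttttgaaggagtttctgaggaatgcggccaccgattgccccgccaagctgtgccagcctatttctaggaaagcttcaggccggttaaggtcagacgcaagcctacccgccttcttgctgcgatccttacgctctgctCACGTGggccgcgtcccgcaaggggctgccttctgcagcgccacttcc
Utp14b: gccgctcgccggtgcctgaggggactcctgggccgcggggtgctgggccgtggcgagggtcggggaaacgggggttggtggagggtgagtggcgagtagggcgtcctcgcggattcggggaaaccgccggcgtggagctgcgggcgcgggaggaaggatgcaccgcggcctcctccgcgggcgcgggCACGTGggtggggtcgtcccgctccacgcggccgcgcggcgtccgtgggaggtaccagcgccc
Of these 5 genes, Rrp7a, Utp18, Nop2 and Rrn3 had lower levels in both PELP1 FBKO libraries than in FLOXED and Utp14b had higher levels. The other E-box members, Nol11 (-0.11) and Wdr46 (-0.26), overlapped between genotypes, so 5 of 7 did not overlap, Utp14b in the higher direction. Of all 55 members 26 were lower and 2 higher without overlap, against 23% and 25.4% of all tested genes, or 48.4% in either direction. Rrn3 carries the motif at 2 places and the others at 1. A match is a description of letters, not evidence of binding.

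Myc and genes related to it were looked at in the same fit, while factors of the other motifs were not. Myc measured 14.3 and 14.2 CPM in the FLOXED libraries, and 8.07 and 11.7 CPM in those of PELP1 FBKO. The log2 fold change was -0.53 (SE 0.215, unadjusted p = 0.0398, edgeR quasi-likelihood adjusted p = 0.292). Mxi1, which competes with Myc for its partner Max, was at 54.6, 56.9, 70.2 and 70.5 CPM, a log2 fold change of 0.34 (SE 0.123, unadjusted p = 0.0261, edgeR quasi-likelihood adjusted p = 0.250). Neither gene's genotypes overlapped. Mycn, a paralog of Myc that binds the same motif, lay the other way, at 7.01, 5.91, 9.43 and 7.20 CPM (log2 fold change 0.37, SE 0.226), also without overlap. The paralog Mycl1 (-0.01) and the partner Max (0.03) overlapped between genotypes. The 17 tested growth regulators as a list had a median of 0.02, with 10 positive and 7 negative. Of these 17, 3 were higher and 2 lower without overlap, against 25.4% and 23% of all tested genes. An unadjusted p under 0.05 (edgeR quasi-likelihood) was found for 1 higher and 1 lower, against 10.1% and 5.55% of all tested genes.

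Ribosome biogenesis genes outside the symbol rule lay on the same side. Of 14 other RNA polymerase I factors 13 were negative (median -0.18), of 35 other small subunit factors 32 (-0.19), of 43 other large subunit factors 38 (-0.17) and of 14 exosome genes, whose products trim the precursor ends, 14 (-0.15). None of these genes passed the adjusted threshold, and an unadjusted p under 0.05 was found for 9 of the 106 on the negative side and 0 on the positive, against 5.55% and 10.1% of all tested genes. Eif6, which keeps immature large subunits from joining small ones, was at 95.9, 70.2, 52.6 and 52.6 CPM, with a log2 fold change of -0.66 (SE 0.166, edgeR quasi-likelihood adjusted p = 0.129). Taf1d, a subunit of the polymerase I selectivity factor, was at 18.2, 13.3, 8.52 and 11.7 CPM. Smaller differences without overlap were found for Bysl (59.1, 48.6, 43.6 and 39.2 CPM), Noc4l (30.8, 30.1, 24.4 and 22.8 CPM) and Mak16 (34.3, 32.2, 24.3 and 26.6 CPM). Polr2f, which is shared by all 3 nuclear polymerases, was at 72.0 CPM in FLOXED 1 and between 41.8 and 46.9 CPM elsewhere. The exosome genes with the smallest p-values were Exosc4 (log2 fold change -0.40, SE 0.184) and Exosc5 (-0.37, SE 0.195).

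The 7 genes of the rixosome list, Pelp1 among them, had negative log2 fold changes, with a median of -0.21. Pelp1 (-0.59) is the targeted gene, so its sign says nothing about the others. Of these, Nol9 (-0.0055) and Mdn1 (-0.020) lay near 0, below them Tex10 (-0.14), Senp3 (-0.21), Wdr18 (-0.29) and Las1l (-0.31). Las1l, the endonuclease of the rixosome, was at 80.1, 94.7, 64.7 and 76.4 CPM. Nol9, the polynucleotide kinase of the rixosome, was at 37.3, 36.3, 36.6 and 36.7 CPM.

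Marker lists of other cell types also differed between genotypes, although no single marker passed the test. All 12 oligodendrocyte markers had positive log2 fold changes, and their summed level was 3045 and 3895 CPM in FLOXED and 6027 and 6490 CPM in PELP1 FBKO. All 12 astrocyte markers were positive as well, with sums of 7075 and 8090 against 9810 and 11356 CPM. Gfap, a large part of these sums, was at 2382 and 2258 against 1500 and 3882 CPM and overlapped between genotypes. The 12 microglial markers (842 and 754 against 929.6 and 1290.4 CPM) and the 10 endothelial and mural markers (299 and 376 against 465 and 474 CPM) were all positive too. Higher without overlap were 11 oligodendrocyte, 9 astrocyte, 6 microglial and 8 endothelial and mural markers, against 25.4% of all tested genes. Of 11 neuronal markers 6 were positive and 5 negative, with sums of 12076.5 and 12318 against 13916 and 11324 CPM. Within the 14 markers of hippocampal neuron types 9 were negative and 5 positive (median -0.27), and none passed the adjusted threshold. An unadjusted p under 0.05 was found for 5 on the negative side and 2 on the positive, against 5.55% and 10.1% of all tested genes. The CA1 genes had lower values in PELP1 FBKO, with log2 fold changes of -0.93 for Pou3f1, -0.79 for Wfs1 and -0.65 for Fibcd1. Of the granule cell genes Prox1 (0.93) and Dsp (0.95) had higher values and C1ql2 (-0.23) overlapped between genotypes. The summed level of this list was 2092 and 2175 against 1999.9 and 1571 CPM. Markers of proliferating cells, which make ribosomes at a high rate, were low in all libraries, with sums of 36.8 and 35.5 against 22.7 and 30.7 CPM, and 9 of 9 tested were negative (median -0.85). Pcna, a large part of these sums, was at 21.6 and 19.2 against 15.1 and 20.2 CPM and overlapped between genotypes. Other markers of this list rest on few reads, such as Aurkb with 17 and 13 against 5 and 8. The 8 choroid plexus markers summed to 357 and 104 against 56.3 and 69.5 CPM, but without Ttr (324, 67.5, 21.4 and 33.9 CPM) the other 7 summed to 33.4 and 36.2 against 34.9 and 35.6 CPM. Of the 5 tested, 3 were positive (median 0.04). The hemoglobin genes Hba-a1 and Hbb-b1 had 0 counted reads in all 4 libraries, which sets no limit on their level, since reads shared between near-identical gene copies were not counted. The erythroid gene Alas2 was at 2.97, 4.47, 8.07 and 8.03 CPM, with a log2 fold change of 1.10 (SE 0.255; edgeR quasi-likelihood, adjusted p = 0.109), and S100a8, a neutrophil gene, had 0 reads in PELP1 FBKO 1. Every other marker had reads in all libraries. The part of these cell types, hippocampal neuron types included, in the members' differences was not tested.

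**Figure D5:**
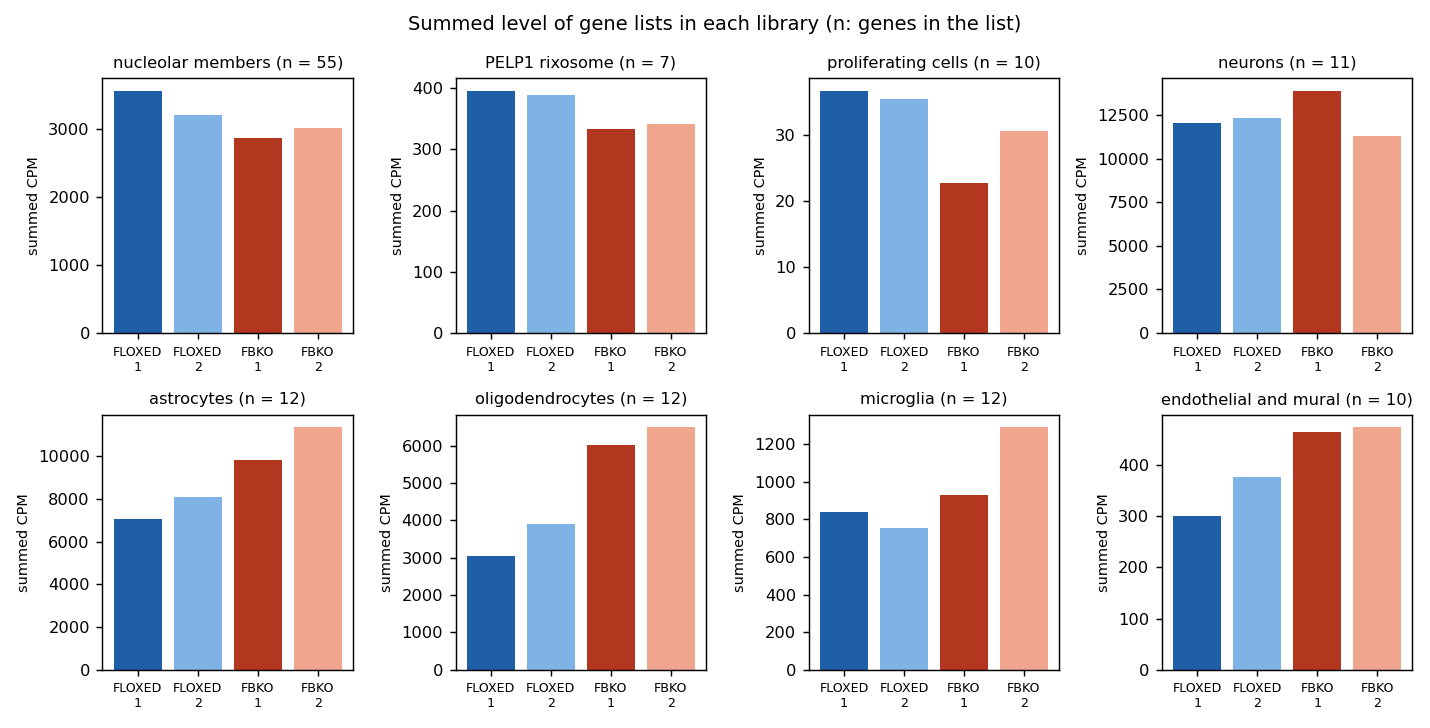
Summed CPM (vertical axis, from 0) of the members, the PELP1 rixosome and 6 cell type marker lists in each of the 4 libraries (bars). The members and the rixosome, whose sum includes the targeted gene Pelp1, are lower in both PELP1 FBKO libraries, as are the markers of proliferating cells. Oligodendrocyte markers go from 3045 and 3895 CPM in FLOXED to 6027 and 6490 CPM in PELP1 FBKO.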

How the data were processed

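RNA from the hippocampus of 2 genotypes was sequenced as 50-base single reads, with 2 libraries each, per the labels' protocols. The values deposited by the authors are unnormalized read counts for each gene symbol. Per the submitters' processing notes, the tools were HTSeq, TopHat2 2.0.8b and CASAVA 1.8.2, with the mm9 build, while the series text names a human build. The sources used here do not give the settings of HTSeq. Reads that aligned to several places were not counted, per the files' own summary rows, where such alignments are 38.5% to 47.7% of the total.

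Libraries were grouped by the genotype label. Genotype was tested mainly with edgeR 4.0.16 under R 4.3.3 (TMM scaling, filterByExpr, quasi-likelihood F test of genotype) over 14978 genes, adjusted by Benjamini-Hochberg and called at 0.05. The 5 rows of HTSeq totals, which name no gene, entered neither the library sizes nor the tests. CPM values are TMM-scaled, and standard errors were derived from the F statistic. Differences between libraries used log2(CPM + 0.5). Alternatives were DESeq2 1.42.0, limma-voom (limma 3.58.1), edgeR's exact and robust tests, other size factors, filters and thresholds, length and GC offsets, a replicate block and leaving out each library. A block with crossed numbers was added after seeing the data. The fits were tested on simulated data. Length and GC content are those of the longest protein-coding transcript in GENCODE vM21, which belongs to a newer build than mm9.

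The members, gene lists and tests were chosen with earlier results of these data known. The genes named are the members with the smallest p in each role (up to 5), a fixed set of core members, Pelp1, and the 2 smallest p-values in each list of other pathway genes. Promoter sequences are RefSeq's (GRCm38.p6). Genes named beyond these were chosen after their values were seen.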

Additional observations from a re-analysis of the deposited data

How the results depend on the processing

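The members' median log2 fold change was negative in every alternative run, from -0.22 to -0.19 with all libraries and from -0.31 to -0.10 with a library left out. The value without FLOXED 1, -0.10, is the smallest in size. No member was called higher or lower in any alternative except the 4 lower ones without FLOXED 2 (0 to 4 over the libraries left out). Counts over the whole table, 0 higher and 0 lower, became 319 and 130 with DESeq2, 562 and 197 with the exact test, 71 and 15 with the robust fit, 13 and 4 with median-of-ratios factors, 278 and 81 without a count filter, 39 and 4 where each library needed 50 reads, 287 and 155 under length and GC offsets, and 234 and 59 at a threshold of 0.10. Leaving out a library gave 0 to 457 higher and 0 to 324 lower. The cause was not tested. Pelp1 passed with the exact test (-0.59, adjusted p = 0.0436) and with length and GC offsets (-0.64, adjusted p = 0.0360).

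With the replicate number as a block, edgeR called 387 genes higher and 179 lower, and no member. Nothing in the labels pairs the numbers, and the deviations of same-numbered libraries from their genotype means correlated at -0.14 over all tested genes. With crossed numbers the block called 223 higher and 91 lower. Over all 55 members, 0 to 7 changed sign in each alternative. Among the members named by p-value or as core members, signs turned for 4. Of these, Nop10 (-0.20) and Polr1c (-0.24) lay near the members' median and Dkc1 (-0.07) and Polr1a (-0.01) near 0. Other members described above turned too, such as Nol6 (-0.0089 with DESeq2) and Nol8 (-0.020 without FLOXED 1). With length and GC offsets Polr1b was at -0.00027 and Rrp1b at -0.029. Over the libraries left out, log2 fold changes ran from -0.16 to 0.011 for Dkc1, -0.093 to 0.066 for Polr1a, -0.49 to 0.15 for Nop10 and -0.49 to 0.037 for Polr1c, and Polr1a was at 0.0036 where each library needed 50 reads. With a single library in a genotype, that library is assumed to vary like the others. The biological coefficient of variation, 14.2%, and 2 libraries a genotype limit what the test can call among differences of this size.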

Other observations

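Per length of transcript the members spanned a wide range. Mean levels in CPM per kilobase of transcript (RPKM) over the 4 libraries ran from 0.623 for Utp14b to 232 for Rrp1, a large subunit factor, with Ncl at 53.1, Npm1 at 49.2, Nhp2 at 41.6, Nop10 at 39.9 and Ubtf at 39.7. Rrp1 stood at 539, 467, 427 and 410.4 CPM, whereas its paralog Rrp1b stood at 13.1, 13.5, 14.3 and 14.2 CPM. Lengths of the longest coding transcript, which reach 8202 bases for Ncl, 9507 for Nop58 and 10012 for Wdr12, make the per-length levels of these genes low estimates where shorter forms prevail.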
